A study of Mus musculus with 7 samples.

Results

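The genes described here encode the enzymes that turn pyruvate and acetate into acetyl-CoA, burn acetyl-CoA in the citric acid cycle, and feed or drain that cycle through malate, glutamate and aspartate. They were taken as a named list of 33 genes, and all 33 had a row in the count table of 23337 gene symbols and passed the filter on low counts, among 14691 genes tested. Poly(A) RNA was sequenced from microdissected left ventricles of 7 mouse embryos at embryonic day 12.5. The 5 control libraries came from embryos with the Gt(ROSA)26Sortm1(cre/ERT2)Tyj allele and Tbx5+/+, and the 2 libraries labelled mutant from embryos with the same Gt(ROSA)26Sortm1(cre/ERT2)Tyj allele and Tbx5flox/flox. Tamoxifen reached all 7 embryos through the mother at E11.5, so the controls also carried the tamoxifen-activated Cre recombinase, which is expressed from the Rosa26 locus and is not limited to heart muscle. The product of Tbx5 is a T-box protein that regulates transcription during heart development.

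In the citric acid cycle, citrate synthase joins acetyl-CoA to oxaloacetate, and a ring of mitochondrial enzymes oxidises the product back to oxaloacetate while passing electrons to the respiratory chain. The pyruvate dehydrogenase complex makes most of the acetyl-CoA from glucose. It is switched off by phosphorylation through the pyruvate dehydrogenase kinases and switched on again by the pyruvate dehydrogenase phosphatases. The embryonic heart relies largely on glucose and lactate and turns to fatty acids mainly around birth.

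The groups are those of the labels, and Tbx5 counts do not check them. Those counts are summed over the gene, deleted part or not, and they were not lower in the libraries labelled mutant. Tbx5 was at 64.2 to 98.3 CPM (read counts scaled to a common library total) in the controls and at 93.9 and 114 CPM in the libraries labelled mutant. Library totals ran from 20268208 to 24440806 counts, and the 33 genes together took 1.02% to 1.12% of the counts in the controls, against 1.22% and 1.10% in the 2 libraries labelled mutant. The defining markers of heart muscle and of the ventricle, such as Tnnt2 and Myl2, were present in all libraries, and so were markers of other cell types. Some of the summed marker levels differed between the groups and others overlapped. The 8 cardiomyocyte markers summed to 27781 to 31220 CPM in the controls, against 34954 and 39258 CPM in the libraries labelled mutant, the 8 markers of cushion mesenchyme and fibroblasts to 2495 to 4307 against 1507 and 1513 CPM, and the 8 macrophage markers to 155 to 211 against 132 and 95.1 CPM. The 6 ventricular markers went the other way from the cardiomyocyte sum, at 11769 to 15286 CPM in the controls and 10789 and 10361 CPM in the libraries labelled mutant, below every control, although 3 of the 6 log2 fold changes were positive and none passed. The 8 atrial markers summed to 3139 to 5211 CPM against 3442 and 3173 CPM, and the 6 epicardial markers to 309 to 441 against 310 and 231 CPM. The 8 erythroid markers varied most widely in CPM among these overlapping sums, at 4217 to 9479 in the controls against 5134 and 5364. No marker was at 0 in any library. Of the cardiomyocyte markers 7 of 8 had a positive log2 fold change and none of the 8 passed the test, while 6 of the 8 cushion markers, 5 of the 8 atrial, 3 of the 8 macrophage and 1 of the 6 epicardial markers were called lower. The median log2 fold change was -1.17 for the cushion, -1.21 for the atrial, -0.78 for the macrophage and -0.53 for the epicardial markers. The part of these cell types in the results below was not tested, and in such bulk samples a change in the number of cells and a change in RNA per cell cannot be told apart. The labels name no litter, so p-values reflect only how far these embryos' samples vary.

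The upstream windows of 3 genes are shown because Acss1 had the largest difference in the list, Ogdh the largest among the enzymes of the cycle itself, and Cs is the entry enzyme of the cycle. Each is the 250 bases before an annotated start, 5′ to 3′ on the strand of the gene, from RefSeq GRCm38.p6. The window of Acss1 is chr2:150668241-150668490 on the minus strand, that of Ogdh chr11:6292308-6292557 on the plus strand and that of Cs chr10:128337477-128337726 on the plus strand. Ogdh has 6 annotated starts, and the start shown was chosen because its window holds AGGTGT. The 3 earliest windows hold none of the motifs searched, the fourth holds no AGGTGT, and the last largely repeats the one shown. Capitals mark matches to 4 motifs searched on both strands.
Acss1: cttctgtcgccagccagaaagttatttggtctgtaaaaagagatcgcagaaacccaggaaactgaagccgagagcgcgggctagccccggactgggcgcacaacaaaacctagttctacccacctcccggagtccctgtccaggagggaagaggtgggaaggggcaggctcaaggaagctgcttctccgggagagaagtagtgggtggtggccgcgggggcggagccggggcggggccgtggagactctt
Ogdh: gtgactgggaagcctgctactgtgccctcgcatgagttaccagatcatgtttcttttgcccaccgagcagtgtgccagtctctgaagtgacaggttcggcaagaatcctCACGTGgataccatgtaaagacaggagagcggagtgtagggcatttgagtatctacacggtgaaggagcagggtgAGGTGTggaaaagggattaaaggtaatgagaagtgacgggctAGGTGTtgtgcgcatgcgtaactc
Cs: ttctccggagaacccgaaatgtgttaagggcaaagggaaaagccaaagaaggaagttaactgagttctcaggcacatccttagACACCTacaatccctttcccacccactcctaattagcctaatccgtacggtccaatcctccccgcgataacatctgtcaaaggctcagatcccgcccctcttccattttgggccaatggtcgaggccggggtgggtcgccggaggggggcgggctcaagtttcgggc

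The motifs were the T-box half-site AGGTGT, the element AAGGTCA bound by oestrogen-related receptors, the palindromic NRF1 element and the E-box CACGTG. The search covered windows of 250 bases before to 50 bases after each start, 38 windows for the 30 of the 33 genes that the table holds. The 3 others, Pdp1, Idh3a and Me2, are named only. AGGTGT was found in 21.1% of these windows (7 of the 30 genes: Aco1, Acss2, Cs, Dlat, Got1, Ogdh and Pdhb) and in 13.7% of all 32851 windows. In the Ogdh window shown it begins at -66 and -24 and CACGTG at -141 from the start, and in the Cs window AGGTGT lies on the opposite strand, where it reads ACACCT, with its first printed base at -167. The Acss1 window holds none of the 4. AAGGTCA was in 5.26% of the windows of the list (Got1 and Ogdh) against 4.72% of all windows, CACGTG in 15.8% (Ogdh, Pcx, Pdp2 and Slc25a1) against 7.15%, and the NRF1 element in 0 of 38 against 0.971%. No match overlapped another in the windows shown. Several starts of Ogdh share the same bases, so windows are not independent, and a match is no evidence of binding.

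The control ventricle expressed the whole pathway, at levels that spanned a wide range. On a per-length scale (CPM per kilobase of exon), the most abundant was Idh2, the mitochondrial NADP-dependent isocitrate dehydrogenase, at 1092 ± 84.5 (SD, n = 5). Mdh1, the cytosolic malate dehydrogenase of the malate-aspartate shuttle, was next at 850 ± 146 (SD, n = 5), and the control ranges of these 2 genes overlapped (993 to 1222 and 614 to 1008). Mdh2, the mitochondrial malate dehydrogenase, stood below both at 472 ± 18.9 (SD, n = 5), and Pdhb, the beta subunit of the E1 enzyme of pyruvate dehydrogenase, followed at 267 ± 37.2 (SD, n = 5). Pdhb did not separate from Cs, at 231 ± 8.10 (SD, n = 5). The lowest were Acss1 at 2.13 ± 0.51, Pdp2 at 1.56 ± 0.0981 and Me3 at 1.17 ± 0.342 (SD, n = 5 each), a mitochondrial acetyl-CoA synthetase, a phosphatase of pyruvate dehydrogenase and the mitochondrial NADP-dependent malic enzyme. The ranges of Acss1 (1.65 to 2.72) and Pdp2 (1.43 to 1.70) overlapped, as did those of Pdp2 and Me3 (0.75 to 1.58).

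**Figure D1:**
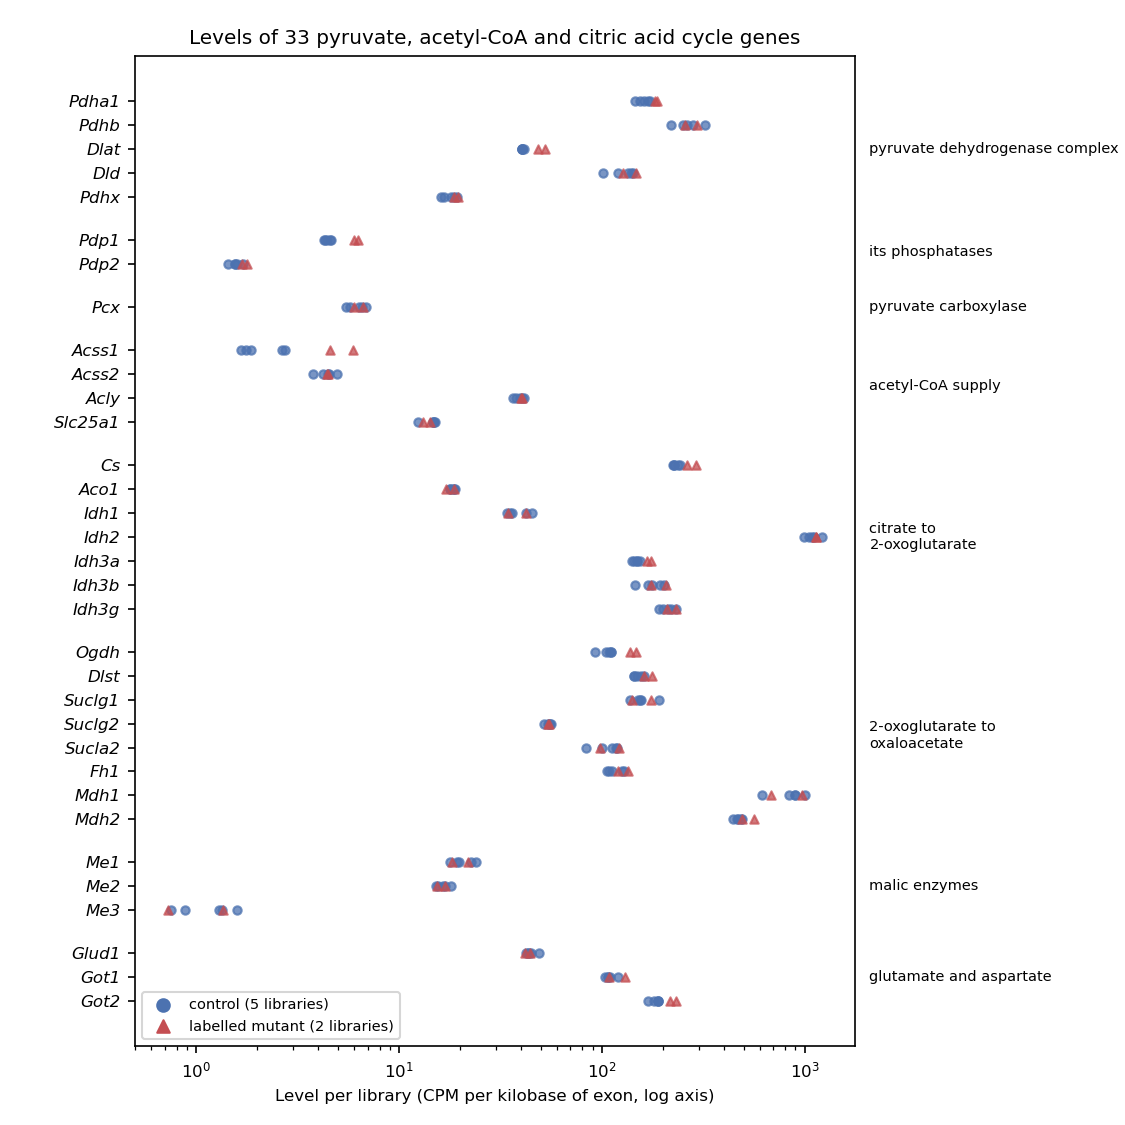
Level of each of the 33 genes in each library, in CPM per kilobase of exon on a log axis, grouped by role. Circles are the 5 control libraries and triangles the 2 libraries labelled mutant; Idh2 and Mdh1 are highest and Acss1, Pdp2 and Me3 lowest in the controls.

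Of the 33 genes, 2 rose in the libraries labelled mutant, Acss1 and Pdp1, and none fell. Calls are those with an adjusted p of at most 0.05 in the quasi-likelihood test of edgeR, with Benjamini-Hochberg adjustment across all 14691 genes, of which 1.36% were called, 0.463% higher and 0.899% lower. The other 31 genes did not pass. At an unadjusted p below 0.05, 8 of the 33 were higher and 0 lower, beside 8.09% and 9.52% of all genes tested. Both libraries labelled mutant lay above every control for 9 of the 33, the same 8 genes and Mdh2, and below every control for 0, against 9.73% and 10.4% of all genes. The median log2 fold change of the 33 was 0.06, beside -0.0080 for all genes tested, and 24 of the 33 values were positive, beside 48.6% of all genes. Without mutant replicate 1 that median was -0.00015, with 16 positive beside 47.6% of all genes, and without mutant replicate 2 it was 0.20, with 31 positive beside 49.2%. Without control replicate 3 it was 0.13.

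**Figure D2:**
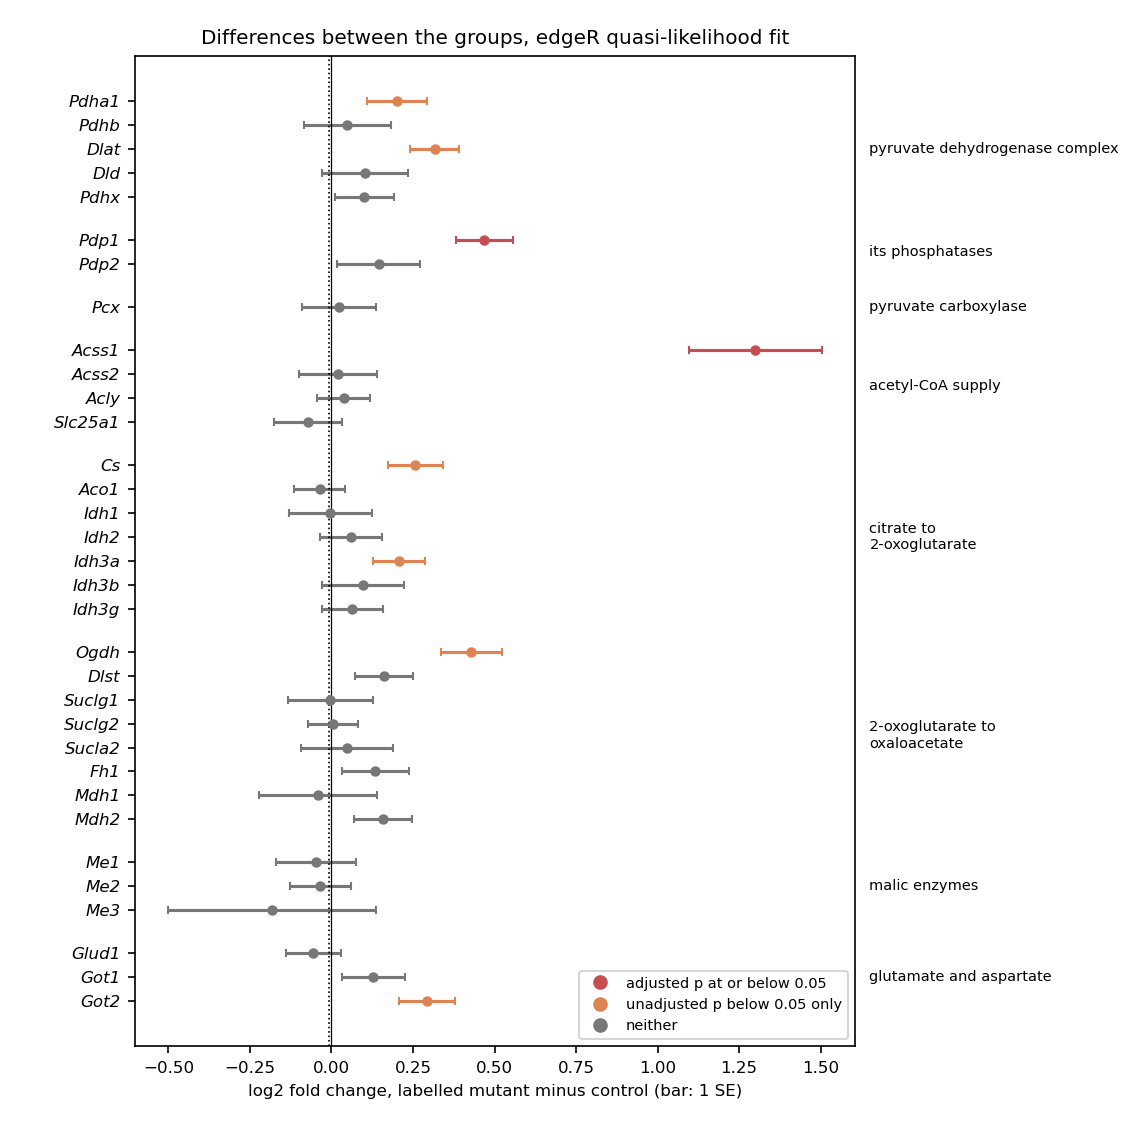
log2 fold change of each of the 33 genes (libraries labelled mutant minus controls), with bars of 1 SE and a dotted line at the median of all genes tested, -0.0080. Acss1 and Pdp1 pass the adjusted threshold, 6 further genes only an unadjusted p below 0.05, and the 3 malic enzymes lie slightly left of 0.

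Among genes that supply acetyl-CoA, Acss1 stood apart. It encodes the mitochondrial enzyme that activates acetate to acetyl-CoA, and it lies at 150618111 to 150668240 on chromosome 2 of GRCm38 (mm10). Its level was 6.37, 5.98, 9.54, 9.85 and 6.75 CPM in control replicates 1 to 5 and 16.4 and 21.4 CPM in mutant replicates 1 and 2. Both libraries labelled mutant were above every control, and control replicates 3 and 4 were above the 3 other controls. The means were 7.70 ± 1.84 (SD, n = 5) and 18.9 ± 3.56 CPM (SD, n = 2), a fold of 2.46, and the log2 fold change was 1.30 with an SE of 0.20 (edgeR adjusted p = 0.0169). The call was lost without mutant replicate 2 (log2 fold change 1.10, edgeR adjusted p = 0.208) and with control replicate 5 and mutant replicate 2 both left out (1.06, 0.172), and held in the 14 other alternatives. Of the 33 genes the authors' deposited table lists 3, Acss1, Pdp1 and Ogdh, beside 4.55% of the genes tested here. In the authors' deposited table Acss1 has a log fold change of 1.29 and a false discovery rate of 4.19e-07.

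Its cytosolic and nuclear counterpart Acss2 did not differ beyond its spread. It was at 16.7 ± 1.67 CPM (SD, n = 5) and 16.9 ± 0.239 CPM (SD, n = 2), with a log2 fold change of 0.02 and a 95% interval of -0.24 to 0.29. Per length, the ratio of Acss1 to Acss2 was 0.395, 0.393, 0.534, 0.727 and 0.415 in control replicates 1 to 5, against 1.01 and 1.35 in mutant replicates 1 and 2. Acss2 was the more abundant of the pair in every control, and Acss1 was slightly above it in mutant replicate 1 and clearly above it in mutant replicate 2. Acly, which cleaves exported citrate into cytosolic acetyl-CoA, was at 180 ± 9.06 CPM (SD, n = 5) and 185 ± 2.09 CPM (SD, n = 2). Slc25a1, the mitochondrial citrate carrier, was at 23.9 ± 1.78 CPM (SD, n = 5) and 22.7 ± 1.34 CPM (SD, n = 2). Neither passed the test, with 95% intervals of the log2 fold change of -0.14 to 0.22 for Acly and -0.30 to 0.16 for Slc25a1.

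The regulators of pyruvate dehydrogenase differed from each other in size and spread. Pdp1, the calcium-stimulated catalytic phosphatase subunit that reactivates the complex, lies at 11958183 to 11966450 on chromosome 4. It was at 20.4, 19.4, 19.3, 20.7 and 19.8 CPM in control replicates 1 to 5, and at 27.1 and 28.1 CPM in mutant replicates 1 and 2. The controls lay close together, at 19.9 ± 0.632 CPM (SD, n = 5), and both libraries labelled mutant lay above them, at 27.6 ± 0.696 CPM (SD, n = 2). The log2 fold change was 0.47 with an SE of 0.09 (edgeR adjusted p = 0.0317), a fold of 1.38. Without control replicate 1, 2 or 3, 78, 72 and 151 genes were called in all, beside 200 with all 7 libraries. The difference in Pdp1 was of similar size in every alternative, 0.45 to 0.49, but its call was lost in 8 of the 16. It was lost without control replicate 1, 2 or 3 (edgeR adjusted p = 0.0741, 0.0801 and 0.0582), without mutant replicate 1 or 2 (0.0684 and 0.239), among the libraries with Xist over 10 CPM (0.163) and without control replicate 5 and mutant replicate 2 together (0.158). It was also lost with the replicate number as a block (edgeR adjusted p = 0.0657), which compares the groups within replicates 1 and 2 only. In the authors' deposited table Pdp1 has a log fold change of 0.46 and a false discovery rate of 0.00689. The second phosphatase, Pdp2, was at 8.90 ± 0.559 CPM (SD, n = 5) and 9.85 ± 0.439 CPM (SD, n = 2), a log2 fold change of 0.15 with an SE of 0.13 and a 95% interval of -0.14 to 0.43. The per-length ratio of Pdp1 to Pdp2 was 2.58 to 3.02 in the controls, against 3.37 and 3.72 in the libraries labelled mutant.

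**Figure D3:**
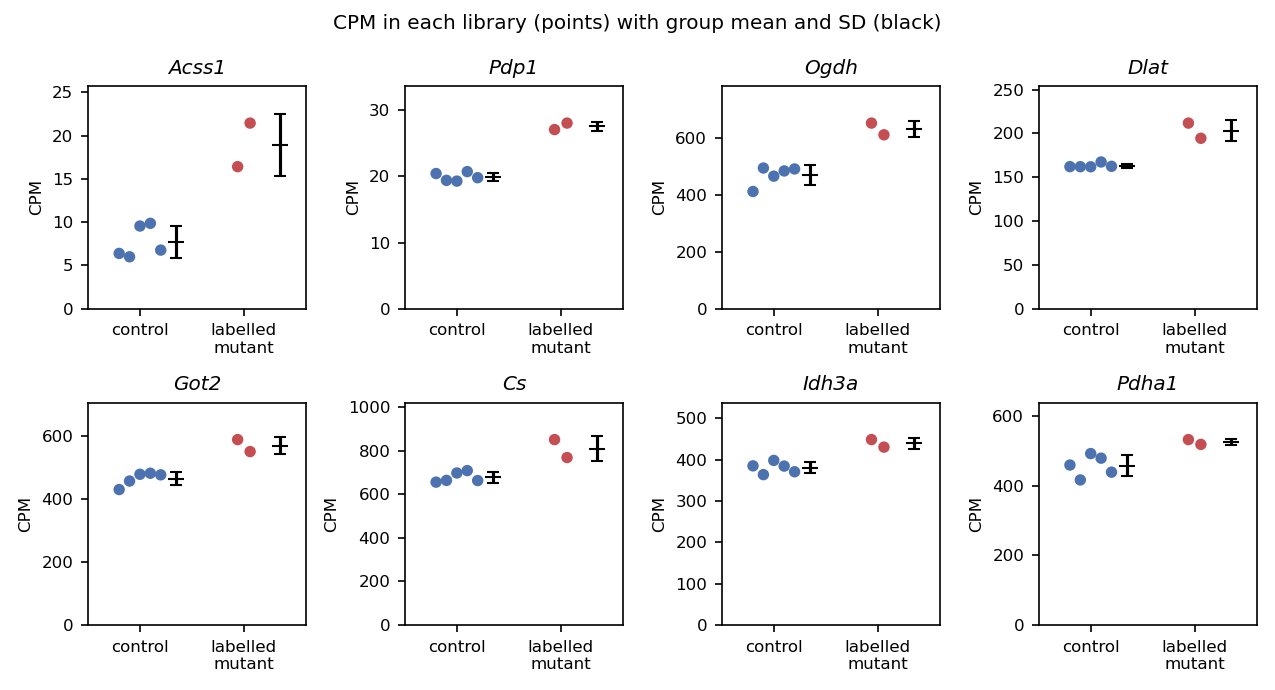
CPM in each library for the 8 genes with an unadjusted p below 0.05, with each group's mean and SD in black; every axis starts at 0. Both libraries labelled mutant lie above all 5 controls in every panel, from 16.4 and 21.4 against 5.98 to 9.85 CPM for Acss1 to 533 and 519 against 417 to 492 CPM for Pdha1.

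In the pyruvate dehydrogenase complex itself all 5 subunit genes had a positive log2 fold change and none passed the adjusted test. Dlat, the E2 core enzyme that transfers the acetyl group to coenzyme A, was at 162, 162, 162, 167 and 162 CPM in control replicates 1 to 5 and 212 and 195 CPM in mutant replicates 1 and 2. The controls differed by little and the groups did not overlap, and the log2 fold change was 0.32 with an SE of 0.07 (edgeR adjusted p = 0.0684). Pdha1, the X-linked E1 alpha subunit that carries the regulatory phosphorylation sites, was at 460, 417, 492, 479 and 439 CPM in control replicates 1 to 5 and 533 and 519 CPM in mutant replicates 1 and 2. Its groups did not overlap either, but the log2 fold change was 0.20 with an SE of 0.09 (edgeR adjusted p = 0.284). Of its exonic bases 21.2% are shared with Map3k15 on the opposite strand, and the library kit does not mark strand. Control replicates 1 and 3 had Xist at 0.689 and 1.09 CPM and the 5 other libraries at 311 to 509 CPM, and Pdha1 in those 2 controls was at 460 and 492 CPM, the latter above every other control. Pdhb, Dld (the E3 subunit shared with other dehydrogenase complexes) and Pdhx (the E3-binding protein) had log2 fold changes of 0.05, 0.10 and 0.10 with SEs of 0.13, 0.13 and 0.09. Their groups overlapped. Pcx, pyruvate carboxylase, which makes oxaloacetate directly from pyruvate, was at 24.2, 29.2, 27.9, 26.8 and 23.1 CPM in control replicates 1 to 5 and 28.1 and 25.3 CPM in mutant replicates 1 and 2. Both of its libraries labelled mutant lay inside the control range, and the log2 fold change was 0.02 with a 95% interval of -0.23 to 0.28.

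Of the 7 genes for making citrate and turning it into 2-oxoglutarate, Cs and Idh3a were above every control in both libraries labelled mutant. None of the 7 passed the test. Cs, citrate synthase, was at 655, 663, 697, 708 and 662 CPM in control replicates 1 to 5 and 850 and 768 CPM in mutant replicates 1 and 2, a log2 fold change of 0.26 with an SE of 0.08 (edgeR adjusted p = 0.156). Idh3a, the catalytic subunit of the NAD-dependent isocitrate dehydrogenase, was at 385, 363, 398, 384 and 370 CPM in control replicates 1 to 5 and 448 and 430 CPM in mutant replicates 1 and 2, a log2 fold change of 0.21 with an SE of 0.08 (edgeR adjusted p = 0.216). The 2 other subunits of the same enzyme, Idh3b and Idh3g, had log2 fold changes of 0.10 and 0.06 with SEs of 0.13 and 0.09. Per length, the ratio of Idh3g to Idh3a was 1.36 to 1.55 in the controls. It was 1.33 and 1.26 in the libraries labelled mutant, both below every control. Idh3g is X-linked like Pdha1, while Idh3a lies on chromosome 9. In control replicates 1 and 3, which had little Xist, the ratio was 1.425 and 1.414, inside the range of the other controls. The part of X linkage in this ratio was not tested. The ratio of Idh3b to Idh3a overlapped, at 1.02 to 1.31 against 1.19 and 1.04. Idh2 did not pass the test, at 1906 ± 147 CPM (SD, n = 5) and 1987 ± 1.05 CPM (SD, n = 2). Its cytosolic relative Idh1 was at 95.2 ± 11.8 CPM (SD, n = 5), while the libraries labelled mutant were at 105 and 85.1 CPM. The 95% intervals of the log2 fold changes were -0.15 to 0.27 for Idh2 and -0.29 to 0.28 for Idh1. Aco1, the cytosolic aconitase that also acts as an iron regulatory protein, was at -0.04 on the log2 scale with an interval of -0.21 to 0.14.

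In the second arm of the cycle, from 2-oxoglutarate to oxaloacetate, Ogdh showed the largest difference of 8 genes. Ogdh is the E1 subunit of the 2-oxoglutarate dehydrogenase complex, a calcium-sensitive control point of the cycle, and lies at 6291597 to 6359094 on chromosome 11. It was at 412, 495, 466, 484 and 491 CPM in control replicates 1 to 5 and 653 and 612 CPM in mutant replicates 1 and 2. The groups did not overlap, and control replicate 1 was the lowest library. The log2 fold change was 0.43 with an SE of 0.09 and the edgeR adjusted p was 0.0547, just outside the threshold, with Pdp1 just inside it at 0.0317. It was called without control replicate 5 (edgeR adjusted p = 0.0486), with no filter on low counts (0.0468), by DESeq2 (0.00084) and with the replicate block (0.0365). The replicate block compares the groups within replicates 1 and 2 only. In the authors' deposited table Ogdh has a log fold change of 0.42 and a false discovery rate of 0.0281.

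The partner subunit Dlst, the E2 of the same complex, was at 414, 397, 448, 429 and 396 CPM in control replicates 1 to 5 and 488 and 444 CPM in mutant replicates 1 and 2. The lower of the libraries labelled mutant lay just inside the control range, and the log2 fold change was 0.16 with an SE of 0.09 (edgeR adjusted p = 0.374). Succinyl-CoA synthetase combines the shared alpha subunit Suclg1 with either Sucla2, for the ATP-forming enzyme, or Suclg2, for the GTP-forming one. None of these 3 passed the test, and their log2 fold changes were -0.0042, 0.05 and 0.0061 with SEs of 0.13, 0.14 and 0.08. The per-length ratio of Sucla2 to Suclg2 was 1.49 to 2.29 in the controls, against 2.22 and 1.80 in the libraries labelled mutant, within the control range. Fh1, fumarate hydratase, had a log2 fold change of 0.13 with an SE of 0.10. Mdh2 was at 648, 675, 718, 707 and 686 CPM in control replicates 1 to 5 and 815 and 718 CPM in mutant replicates 1 and 2, with mutant replicate 2 barely above the highest control. Its log2 fold change was 0.16 with an SE of 0.09 (edgeR adjusted p = 0.38).

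The 3 malic enzymes, which convert malate to pyruvate, were the one role group of the 33 genes in which every log2 fold change was negative, and each was small against its error. Me1, the cytosolic form, was at 70.9, 86.4, 69.7, 64.5 and 81.6 CPM in control replicates 1 to 5 and 78.4 and 66.1 CPM in mutant replicates 1 and 2, inside the control range. The log2 fold changes were -0.05, -0.03 and -0.18 for Me1, Me2 and Me3, with SEs of 0.12, 0.09 and 0.32. The 95% interval of Me3, from -0.89 to 0.52, was the widest of the 33 genes.

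Of the glutamate and aspartate enzymes, Got2, the mitochondrial aspartate aminotransferase of the malate-aspartate shuttle, was at 429, 456, 478, 481 and 476 CPM in control replicates 1 to 5 and 588 and 550 CPM in mutant replicates 1 and 2. The groups did not overlap, and the log2 fold change was 0.29 with an SE of 0.08 (edgeR adjusted p = 0.115). Of the exonic bases of Got2, 15% are shared with Gm45760 on the opposite strand. Its cytosolic partner Got1 had a log2 fold change of 0.13 with an SE of 0.10, and the per-length ratio of Got1 to Got2 was 0.561 to 0.638 in the controls, against 0.56 and 0.50 in the libraries labelled mutant. Glud1, glutamate dehydrogenase, which links glutamate to 2-oxoglutarate, had a log2 fold change of -0.06 with a 95% interval of -0.24 to 0.13.

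The 2 libraries labelled mutant differed from each other across the pathway. Of the 33 genes, 30 were lower in mutant replicate 2 than in mutant replicate 1, beside 49.5% of all genes tested. The median log2 deviation from the control mean over the 33 genes was 0.19 in mutant replicate 1, where 31 of the 33 lay above that mean, and -0.00095 in mutant replicate 2, where 16 did. Among the controls the same median ran from -0.04 in replicate 2 to 0.09 in replicate 3. The 3 genes not lower in mutant replicate 2 were Acss1, Pdp1 and Acly.

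Some genes were low in both control replicate 5 and mutant replicate 2. Mdh1 had 1908, 1777, 2139, 1896 and 1302 CPM in control replicates 1 to 5 and 2053 and 1454 CPM in mutant replicates 1 and 2, so control replicate 5 and mutant replicate 2 were the lowest libraries. Sucla2 was at 187 CPM in control replicate 5 and 219 CPM in mutant replicate 2, against 224 to 272 CPM in the other libraries. Dld was low in control replicate 5 only, at 258 CPM against 305 to 373 CPM elsewhere, with mutant replicate 2 at 322 CPM. For 12 of the 33 genes control replicate 5 was below every other control, beside 28.5% of all genes tested. Of those 12, 11 were lower in mutant replicate 2 than in mutant replicate 1, and so were 19 of the 21 others. The log2 ratio of mutant replicate 2 to mutant replicate 1 was set against that of control replicate 5 to the other controls. Across the 33 genes the Pearson correlation was -0.0276 and the Spearman correlation 0.361. The Spearman value across all 14691 genes tested was similar, at 0.353. The same 2 libraries had the highest control sum of the 8 endothelial markers (1206 CPM, against 820 to 931 in the other controls) and the higher mutant one (1153 against 763 CPM). The erythroid sum did likewise (9479 against 4217 to 6918 CPM, and 5364 against 5134 CPM). They also had the lowest control and the lower mutant sum of the ventricular, epicardial and macrophage markers. The cardiomyocyte, atrial and cushion sums did neither in both libraries. Across the 33 genes the log2 ratio of mutant replicate 2 to mutant replicate 1 had a Pearson correlation with log2 exon length of 0.199. The Spearman correlation with exon length was 0.445, and across 13249 tested genes with a length it was 0.406. For control replicate 5 against the other controls, the 33 genes gave a Pearson value of 0.391 and a Spearman value of 0.349. The Spearman value across the 13249 genes was 0.115. The points of each correlation come from the same libraries and are not independent. The part of these cell types and of transcript length in the pattern was not tested. With both left out, the only library labelled mutant was replicate 1, where 31 of the 33 genes lay above the control mean. The median log2 fold change of the 33 was then 0.13, and all 33 values were positive, beside 48.4% of all genes. These values rest on that library alone.

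**Figure D4:**
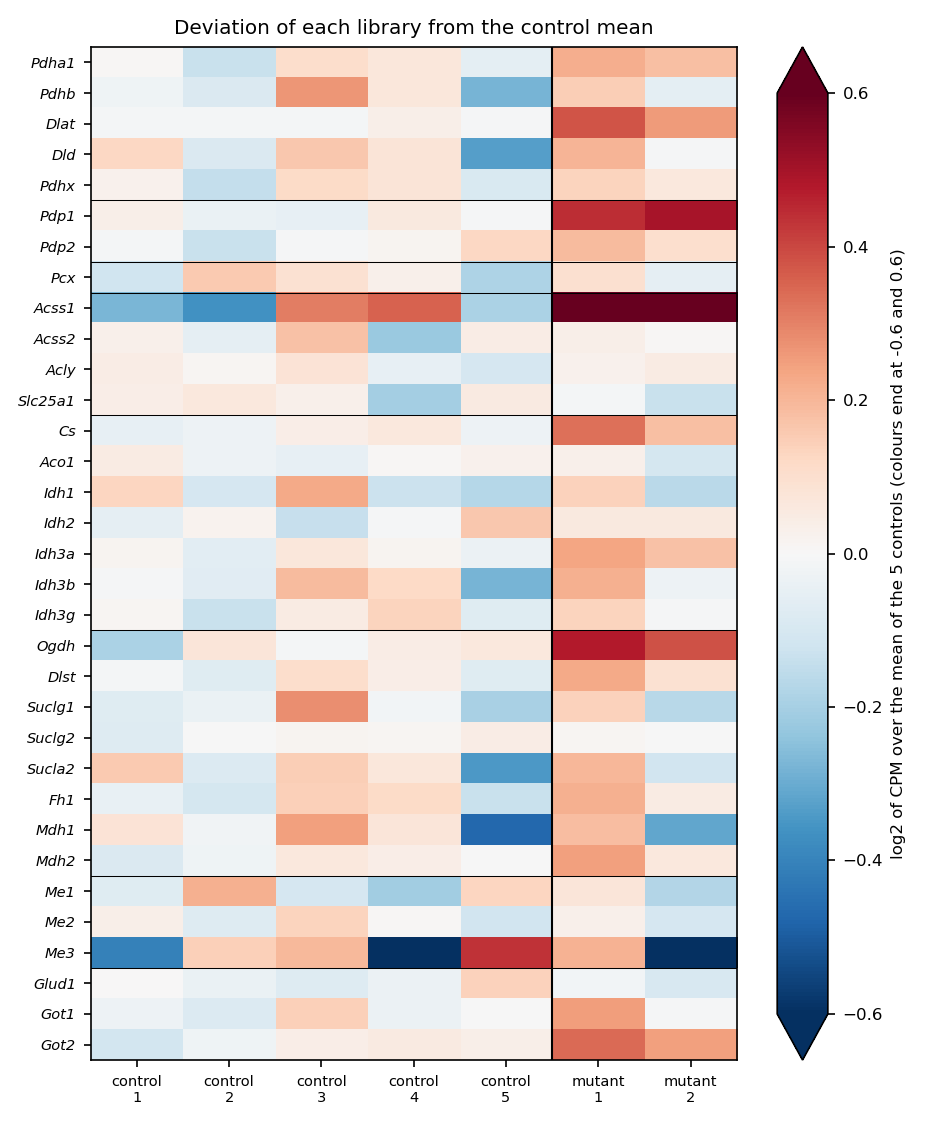
log2 ratio of each library's CPM to the mean of the 5 controls for the 33 genes, red above and blue below, with colours ending at -0.6 and 0.6; thin lines separate the role groups. The column of mutant replicate 1 is mostly red (31 of 33 above the control mean), that of mutant replicate 2 mixed (16 of 33), and Acss1, Pdp1, Ogdh and Dlat are red in both.

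The wider pathway was read from 51 further genes around the same reactions, of which 50 were tested and Pck1 did not pass the filter. The list gave 2 calls, Acacb and Crat, both higher, beside 0.463% of all genes tested called higher and 0.899% lower. Of the 50 log2 fold changes 34 were positive and 16 negative, beside 48.6% positive among all genes. At an unadjusted p below 0.05, 10 were higher and 0 lower, beside 8.09% and 9.52% of all genes. Both libraries labelled mutant lay above every control for 15 and below every control for 0, beside 9.73% and 10.4%. The median log2 fold change was 0.13, beside -0.0080 for all genes tested. Without mutant replicate 1 that median was 0.03, beside -0.017 for all genes. Acacb, the acetyl-CoA carboxylase whose malonyl-CoA restrains fatty acid entry into mitochondria, was at 60.6, 76.0, 66.6, 77.9 and 81.8 CPM in control replicates 1 to 5 and 116 and 142 CPM in mutant replicates 1 and 2. All controls lay below both libraries labelled mutant, and the log2 fold change was 0.83 with an SE of 0.12 (edgeR adjusted p = 0.0134). Crat, carnitine acetyltransferase, which buffers mitochondrial acetyl-CoA as acetylcarnitine, was at 118, 115, 116, 127 and 127 CPM in control replicates 1 to 5 and 163 and 164 CPM in mutant replicates 1 and 2, a log2 fold change of 0.44 with an SE of 0.08 (edgeR adjusted p = 0.0265). Without mutant replicate 2 neither was called (edgeR adjusted p = 0.175 for Acacb and 0.196 for Crat). Leaving out control replicate 1, 2 or 3 (0.0764, 0.0767 and 0.0516) or mutant replicate 1 (0.0633) also ended the call of Crat, and the libraries with Xist over 10 CPM gave 0.173. With control replicate 5 and mutant replicate 2 both left out the adjusted p was 0.0699 for each.

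Among the genes of pyruvate entry, of lactate dehydrogenase (Ldha and Ldhb) and of the control of pyruvate dehydrogenase, none of 9 passed. Mpc1 and Mpc2, the subunits of the mitochondrial pyruvate carrier, which the table lists as Brp44l and Brp44, had log2 fold changes of -0.11 and -0.02 with SEs of 0.19 and 0.12. Pdk4, the least abundant of the kinases that oppose the phosphatases, was at 37.3 ± 2.19 CPM (SD, n = 5) and 47.2 ± 4.30 CPM (SD, n = 2). Its log2 fold change was 0.34 with an SE of 0.09 (edgeR adjusted p = 0.0999). The more abundant kinases Pdk1, Pdk2 and Pdk3 had control means of 328, 78.2 and 131 CPM. Their log2 fold changes were 0.05, 0.15 and 0.06, with SEs of 0.09, 0.10 and 0.09. Pdpr, the regulatory subunit of the phosphatase, was at 19.3 ± 2.91 CPM (SD, n = 5) and 26.7 ± 1.56 CPM (SD, n = 2), a log2 fold change of 0.47 with an SE of 0.14 (edgeR adjusted p = 0.125). For Pdk4 and Pdpr the 2 libraries labelled mutant lay above every control.

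Of the 6 other enzymes of the cycle none passed. Sdha, the flavoprotein subunit of succinate dehydrogenase, had a log2 fold change of 0.34 with an SE of 0.10 (edgeR adjusted p = 0.109). Of 11 tested genes of anaplerosis and carriers none passed, and Slc25a13 and Slc25a12, the mitochondrial aspartate-glutamate carriers that serve the same shuttle as Got2, had values of 0.35 and 0.18 with SEs of 0.10 and 0.08. Of 8 genes of coenzyme A synthesis and transport none passed, with Pank1 and Pank3, both pantothenate kinases, at 0.39 and 0.31 with SEs of 0.11 and 0.16. Of 3 mitochondrial deacylases none passed, with Sirt4 and Sirt5 at 0.40 and 0.18 with SEs of 0.15 and 0.10. The 3 genes of lipoyl synthesis and attachment, a cofactor of the E2 enzymes Dlat and Dlst, had slightly negative values, among them Lipt1 at -0.05 and Lias at -0.03 with SEs of 0.15 and 0.09.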

How the data were processed

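The deposited table holds raw read counts per gene symbol. Per the submitters' processing notes the build was mm10, with edgeR 3.16.5, limma 3.30.13 and R 3.3.2 beside featureCounts and TopHat2 2.1.1. For the strand setting and annotation the sources used here give nothing. The authors' table of 668 genes gives log2 fold changes (taken as log2 because its values for the 5 listed genes of the pathway differ from those computed here by at most 0.0061), p-values and false discovery rates of at most 0.05.

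Genes were kept by filterByExpr (minimum count 10, total 15), normalized by TMM and tested with edgeR 4.0.16 in R 4.3.3 (glmQLFit, robust, genotype only, 7 libraries). The SE is the log2 fold change over the square root of F. The test was tested on simulated data. Per-length levels use GENCODE exon unions, and positions RefSeq GRCm38.p6. The 16 alternatives include DESeq2 1.42.0 and limma-voom 3.58.1. Of the 33 genes, values per library are given for those with an unadjusted p below 0.05 and for the most abundant gene of each other role group, and paralogs among the 33 are always described. Of the further genes, those called are given per library, and in each group without a call the 2 genes of lowest p are given as log2 fold changes, except 1 gene that is not reported here. Values for Dlst, Mdh1, Mdh2, Sucla2 and Dld by library, and those for Pdk1, Pdk2 and Pdk3, were added after their values were seen. The genes and lists were chosen with earlier results of these data known. A chi-square test of the counts of each pair of replicates gave 8.67 to 27.3 per degree of freedom, where sampling noise alone gives about 1, and no pair was treated as 1 library.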

Additional observations from a re-analysis of the deposited data

Results flagged for a closer look

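Among 35 genes checked for a control library far from the other 4, chance flags about 1 in 20 and 2 were found, both with control replicate 4. Dlat was at 167 CPM there and at 162 CPM in each of the others, a gap that is small beside the libraries labelled mutant (212 and 195 CPM). Slc25a1 was at 20.7 CPM there and at 24.4 to 25.0 CPM in the others.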

How the results depend on the processing

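Acss1 was called in 14 of 16 alternatives, Pdp1 in 8 and Ogdh, not called in the reported fit, in 4. No alternative called any of the 33 genes lower. DESeq2 called 6 of the 33 (Acss1, Cs, Dlat, Got2, Ogdh and Pdp1), 6 of the further pathway genes and 785 genes in all (350 higher, 435 lower). limma-voom called 114 in all (65 lower), and no filter on low counts gave 120 called higher. Among the libraries with Xist over 10 CPM, 66 genes were called (17 higher, 49 lower), with 1 of the 33 and 1 further pathway gene, and the median of the 33 was 0.14. Without control replicate 5 and mutant replicate 2 together, 52 genes were called (15 higher, 37 lower), with 0 of the 33 and 0 further ones, and that median was 0.13. At an unadjusted p below 0.05, edgeR then had 10 of the 33 higher and 0 lower, beside 5.79% and 6.95% of all genes in that fit.

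Leaving out 1 library at a time gave 12 to 275 genes called, 3 to 151 higher and 9 to 182 lower, 0 to 3 of the 33 and 0 to 2 further pathway genes. The lowest counts of genes called came without mutant replicate 2 (12), while without mutant replicate 1 there were 213. In both fits the lone library labelled mutant is assumed to vary like the controls. The same holds for the fit without control replicate 5 and mutant replicate 2 together. The median of the 33 ran from -0.00015 to 0.20 and that of the further genes from 0.030 to 0.16. The log2 fold changes that changed sign in this step ran from -0.057 to 0.16 for Pdhb, -0.0054 to 0.22 for Dld, -0.052 to 0.11 for Pcx, -0.022 to 0.075 for Acss2, -0.11 to 0.043 for Aco1, -0.16 to 0.15 for Idh1 and for Suclg1, -0.031 to 0.23 for Idh3b, -0.0050 to 0.14 for Idh3g, -0.0076 to 0.024 for Suclg2, -0.12 to 0.21 for Sucla2, -0.31 to 0.20 for Mdh1, -0.18 to 0.083 for Me1, -0.10 to 0.042 for Me2, -0.70 to 0.21 for Me3 and -0.0062 to 0.26 for Got1.

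Other sign changes were Idh1 at 0.0053 with DESeq2 size factors, 0.0054 with DESeq2, 0.0059 with no filter, 0.13 among the libraries with Xist and 0.11 without control replicate 5 and mutant replicate 2. Suclg1 was at 0.0042 with either DESeq2 setting, 0.0047 with no filter, 0.082 among the libraries with Xist and 0.11 without those 2 libraries. Among the libraries with Xist, Suclg2 was at -0.0088, Mdh1 at 0.085 and Me2 at 0.031. Without the 2 libraries, Slc25a1 was at 0.0094, Aco1 at 0.047, Mdh1 at 0.10, Me1 at 0.12, Me2 at 0.013, Me3 at 0.35 and Glud1 at 0.028. The cause of these changes was not tested, and none of these genes was called in the reported fit.

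The labels give replicate numbers in both groups and do not say that same-numbered libraries are paired. Deviations of same-numbered libraries from their group means correlated at 0.10 for pair 1 and 0.0047 for pair 2. The deviations of the 2 libraries labelled mutant mirror each other, so these values are not separate checks. They cannot show whether the numbers mark pairs. With the replicate block 811 genes were called (299 higher, 512 lower). They included Acss1 and Ogdh among the 33 and 5 of the further pathway genes, and Suclg1 was at 0.043. Only replicates 1 and 2 occur in both groups, so that fit compares the groups within those pairs alone. It also leaves little of the 7 libraries for estimating the spread.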
